A study of Mus musculus with 3 samples.

Results

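Kupffer cells were studied here as a marker gate on single cells of mouse liver. A barcode with at least 200 detected genes was a member when it carried a UMI of at least 2 of the 5 identity genes Clec4f, Vsig4, Cd5l, Marco and Cd209f. It also had to carry at least 2 of the 3 C1q chain genes, C1qa, C1qb and C1qc, and fewer than 2 of Gpnmb, Trem2, Atp6v0d2 and Mmp12, which mark another macrophage state. Members were thus chosen by the measured UMIs of these genes, and the levels of these 12 genes describe the choice of cells and support nothing. The gate took 3261 of 25263 cells. A UMI is a molecular tag that counts 1 captured transcript, and levels are given below as CPM, the UMIs of a gene per 1000000 UMIs of the members of a library.

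Kupffer cells are the resident macrophages of the liver sinusoids. They clear particles, bacteria and ageing red blood cells from the portal blood, recycle the iron, and keep a gene program set by their niche, with the lectin Clec4f as its best known marker in mice. Resident macrophages present antigen through MHC class II, and after tissue damage some are lost while monocytes enter.

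The cells came from adult C57BL/6 mice and 3 Drop-seq libraries, 1 per condition. The control was a sham operation with tissue taken after 1 day, and the other groups were irreversible electroporation (IRE) taken at 1 day and at 7 days post-injury (p.i.). IRE kills cells by opening their membranes in an electric field. The labels give a setting of 75 V with 8 pulses, each 50 ms long and 1 s apart, and a 4 mm punch of liver. The study's methods describe livers pooled within a condition and a lower voltage, and they do not name the sham. With 1 library per condition there was no replicate, so no test was made and no p-value is given. All intervals are exact 95% intervals (Poisson for sums, binomial for shares and ratios) and cover counting error between these libraries only. The 7-day library had no control of its own time, so time since surgery and injury cannot be told apart for it.

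The deposited matrices held 15704 barcodes for the control, 18161 at 1 day and 12466 at 7 days, of which 10386, 9253 and 5624 had at least 200 genes. Members had a median of 880.5 UMIs in the control, 700 at 1 day and 684 at 7 days, and summed to 1384295, 1810408 and 118772 UMIs, so the 7-day values rest on far fewer counts. The libraries stood apart in RNA quality. Mitochondrial transcripts made 12.9%, 14.1% and 2.76% of the members' UMIs, and 22.0%, 25.0% and 4.15% outside the gate. Libraries shared 68, 44 and 149 cell barcodes in pairs, with 1 shared member in each pair.

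The members made 12.4% of control cells (1290 of 10386, 95% interval 11.8% to 13.1%), 19.8% at 1 day (1836 of 9253, 19.0% to 20.7%) and 2.40% at 7 days (135 of 5624, 2.02% to 2.83%). The share was thus highest at 1 day and lowest at 7 days, and the 3 intervals did not overlap. A share is relative to the other cells of its library, and the number of Kupffer cells in the tissue was not measured. Classical monocyte barcodes, as an example of the other cells, numbered 1531 in the control, 156 at 1 day and 1562 at 7 days. They carried at least 2 of Ly6c2, Ccr2, Chi3l3 and Plac8, with fewer than 2 C1q genes and fewer than 2 identity genes. Of all cells outside the gate 4.87%, 18.8% and 1.22% carried at least 2 identity genes and could not be counted as monocytes. The effect of that rule on the monocyte numbers was not tested. Among cells with at least 2 C1q genes the members made 44.9% in the control, 71.7% at 1 day and 28.6% at 7 days, which gives the same order.

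The share was also read without barcodes that carried markers of endothelium. At least 2 sinusoidal endothelial markers were found in 106 members of the control, 778 at 1 day and 8 at 7 days. With every barcode of that kind left out, members and other cells alike, the members made 13.7% in the control (1184 of 8655), 24.2% at 1 day (1058 of 4376) and 2.29% at 7 days (127 of 5535), in the same order. Left out of the members alone they gave 11.4%, 11.4% and 2.26% of all cells, a count in which the total keeps the barcodes that the members lose. Both checks were chosen after seeing the data. After random thinning to 300 UMIs per cell, without 209, 298 and 545 cells that were shallower, the shares were 5.99%, 9.85% and 1.48%, in the same order as before thinning.

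Cells that should lack Kupffer genes measured the background of the gate. Of cells with T cell markers 12 of 536 passed in the control (2.24%), 29 of 270 at 1 day (10.7%, 95% interval 7.31% to 15.1%) and 0 of 115 at 7 days, which allows a share of up to 2.61% by a limit of 3 counts and of up to 3.16% by the exact interval. Their median depths were 713, 592.5 and 499 UMIs, lower than those of the members. Barcodes under 200 genes, which can hold free RNA or cells with little RNA, passed at 1.28%, 2.17% and 0.0877%. The background of the gate was thus highest in the library in which the members were most frequent. Its part in the 1-day share was not tested.

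**Figure D1:**
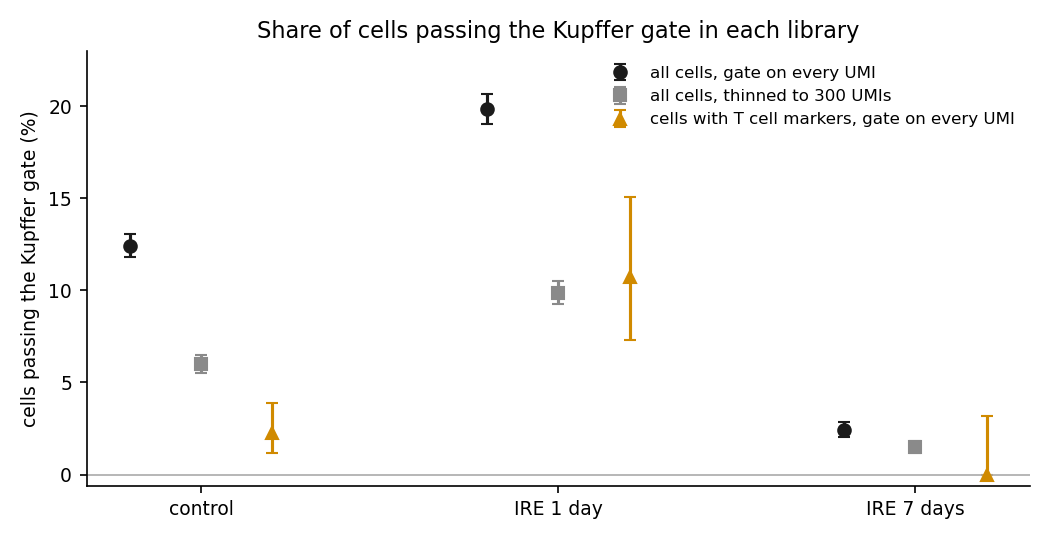
Percent of cells passing the Kupffer gate (y axis) in the 3 libraries (x axis), for all cells on every UMI (circles), all cells thinned to 300 UMIs (squares) and cells with T cell markers (triangles), with exact 95% binomial intervals. The share of all cells is highest at 1 day (19.8%) and lowest at 7 days (2.40%), and the T cell share is also highest at 1 day (10.7%).

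RNA of other cells was also found inside the gate, and its kind changed with the library. At least 2 of 13 hepatocyte markers were seen in 67 members of the control, 1713 at 1 day and 1 at 7 days, and the list made 0.206%, 3.55% and 0.016% of the members' UMIs against 0.146%, 2.58% and 0.0294% outside. The 8 endothelial markers made 0.0555%, 0.242% and 0.0362%. The 10 neutrophil markers, among them S100a8 and S100a9, ran the other way at 0.208%, 0.0397% and 1.40%, against 0.456%, 0.0783% and 4.35% outside the gate. Removing every member with at least 2 markers of hepatocytes, endothelium, neutrophils, lymphocytes or mesenchymal cells left 844, 93 and 12 members, or 8.13%, 1.01% and 0.213% of all cells, with the control above 1 day. In that count the total keeps the barcodes that the members lose. With such barcodes left out of the other cells too, the members were 14.6% of 5775, 33.1% of 281 and 2.20% of 546 cells, a check added after seeing the data. No doublet caller was run, so such barcodes can hold 2 cells or free RNA.

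The label of the gate was checked on 13 identity genes that it did not read. They made 0.737% of the members' UMIs in the control, 0.749% at 1 day and 0.639% at 7 days. Outside the gate the same genes made 0.0713%, 0.216% and 0.0300%, so the members were above the other cells in every library, by the smallest margin at 1 day. Against the other cells with C1q genes the list was 6.49 times higher in the control (6.08 to 6.92), 2.65 times at 1 day (2.5 to 2.80) and 13.4 times at 7 days (11.0 to 16.6). The smaller contrast at 1 day came with a higher level in those other cells, 0.283% against 0.114% in the control and 0.0476% at 7 days. Against the cells of the Gpnmb and Trem2 state the list was 6.78 times higher in the control (486 such cells), 2.36 times at 1 day (2 cells, 1.14 to 5.87) and 2.06 times at 7 days (26 cells, 1.65 to 2.60).

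At the edge of the gate the program was graded. Control cells with the C1q genes and 1 identity gene, just outside, had the 13 other identity genes at 0.175% of UMIs, and members with 2 identity genes at 0.524%. With 4 identity genes the value was 0.830%. At 1 day the same groups had 0.309%, 0.495% and 0.934%, and at 7 days 0.184%, 0.516% and 0.710%. Cells just outside numbered 349, 477 and 38.

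The genes of the gate did not move together. Clec4f, the galactose-binding lectin, had 4256 CPM in the control, 4157 at 1 day and 2719.5 at 7 days. Marco, a scavenger receptor for bacteria, had 2510.3, 892 and 4361, and was thus lowest at 1 day and highest at 7 days. A UMI of Marco was seen in 58.8%, 38.7% and 71.9% of members. The injured libraries thus lay on opposite sides of the control for Marco. Vsig4, a receptor for complement C3 fragments, had 1024, 1408 and 1751. Cd5l, a secreted scavenger-type protein, had 3809.9, 2590.0 and 3494. Cd209f, a lectin of the DC-SIGN family, was rare, with 16, 116 and 0 UMIs. These levels chose the cells and are a description.

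Of the other identity genes 12 entered at 1 day, all within 2-fold of the control, and 10 of 11 were within 2-fold at 7 days. Timd4, the phosphatidylserine receptor of long-lived resident macrophages, had 342 CPM in the control, 236 at 1 day and 219 at 7 days. Folr2, a folate receptor, had 688, 875 and 657. Timd4 was thus highest in the control and Folr2 at 1 day. Fcna, a ficolin of the lectin pathway, had 1648, 2151 and 1381. Slc40a1, the iron exporter ferroportin, had 1393, 992 and 959.8. Clec1b, a C-type lectin, had 441, 392 and 413. The intervals of Timd4 at the later times did not reach the control value, whereas those of Folr2 at 7 days did. Cd207, known as langerin, had 59.2, 93.9 and 185, with 22 UMIs at 7 days. It did not enter that comparison because fewer than 10 UMIs were expected in the smaller library. C6, which encodes a complement component of the membrane attack complex, had 625, 474 and 227, and was the 1 identity gene of 11 entering that was at least 2-fold lower at 7 days.

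**Figure D2:**
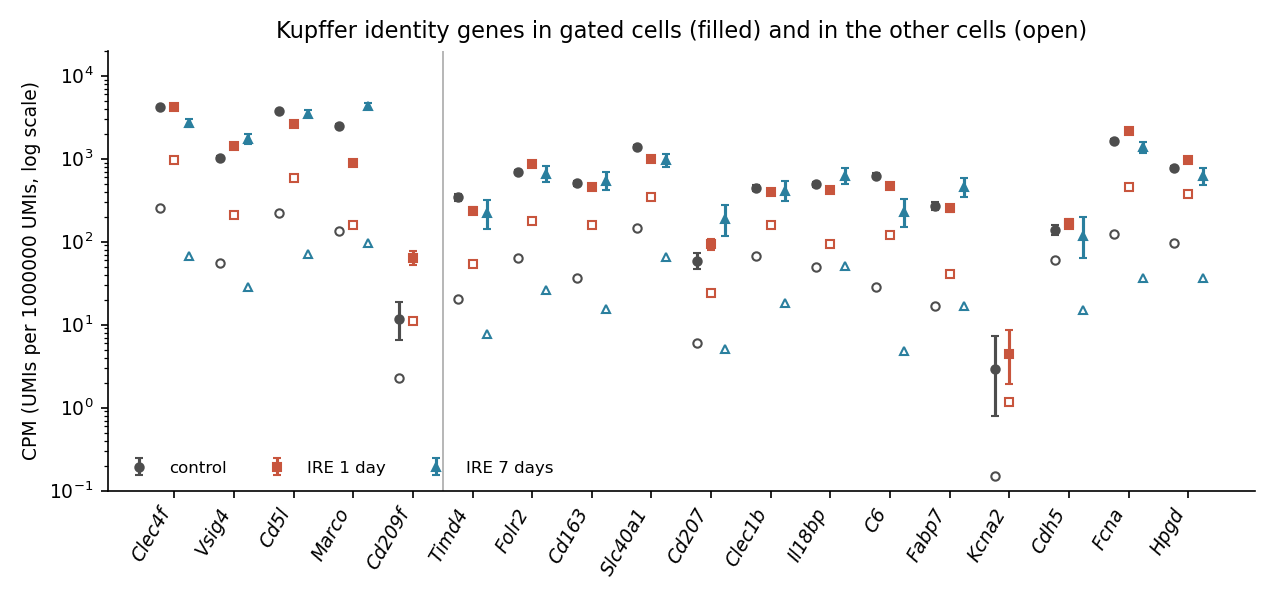
CPM on a log scale (y axis) of the 5 gate genes and the 13 other identity genes (x axis, divided by the grey line) in members (filled, with exact 95% Poisson intervals) and in the other cells (open), by library, with genes at 0 UMIs left out. Members lie above the other cells, and the open symbols of the 1-day library lie highest among the other cells for most genes, as for Clec4f with 978 CPM against 255 in the control.

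A gene entered a comparison with the control when both libraries together held at least 50 UMIs of it and at least 10 were expected in the smaller one, and it was counted as higher or lower from a ratio of 2 or of 0.5. At 1 day 6913 genes entered. Of these 852 were higher, a share of 12.3%, and 318 were lower, a share of 4.6%, with a median ratio of 0.953. At 7 days 1906 genes entered, 119 were higher (6.24%) and 142 were lower (7.45%), with a median ratio of 1.03. These shares are the background for the counts of each list. The counts at 1 day differed with the members kept. Without members that carried endothelial markers 1058 members remained at 1 day, and of 4916 genes entering 276 were higher and 209 lower. With all mixed barcodes removed 93 members remained, and of 543 entering 11 were higher and 44 lower. With mitochondrial and hepatocyte UMIs left out of the total, on all members, 910 genes were higher and 248 lower. Why the counts differed was not tested. At 7 days a TMM scaling factor moved the median of all genes to -0.20 on the log2 scale and the counts to 71 higher and 259 lower, and a total without mitochondrial and hepatocyte UMIs gave 90 higher and 203 lower, so the balance of directions at 7 days depended on the scaling.

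**Figure D3:**
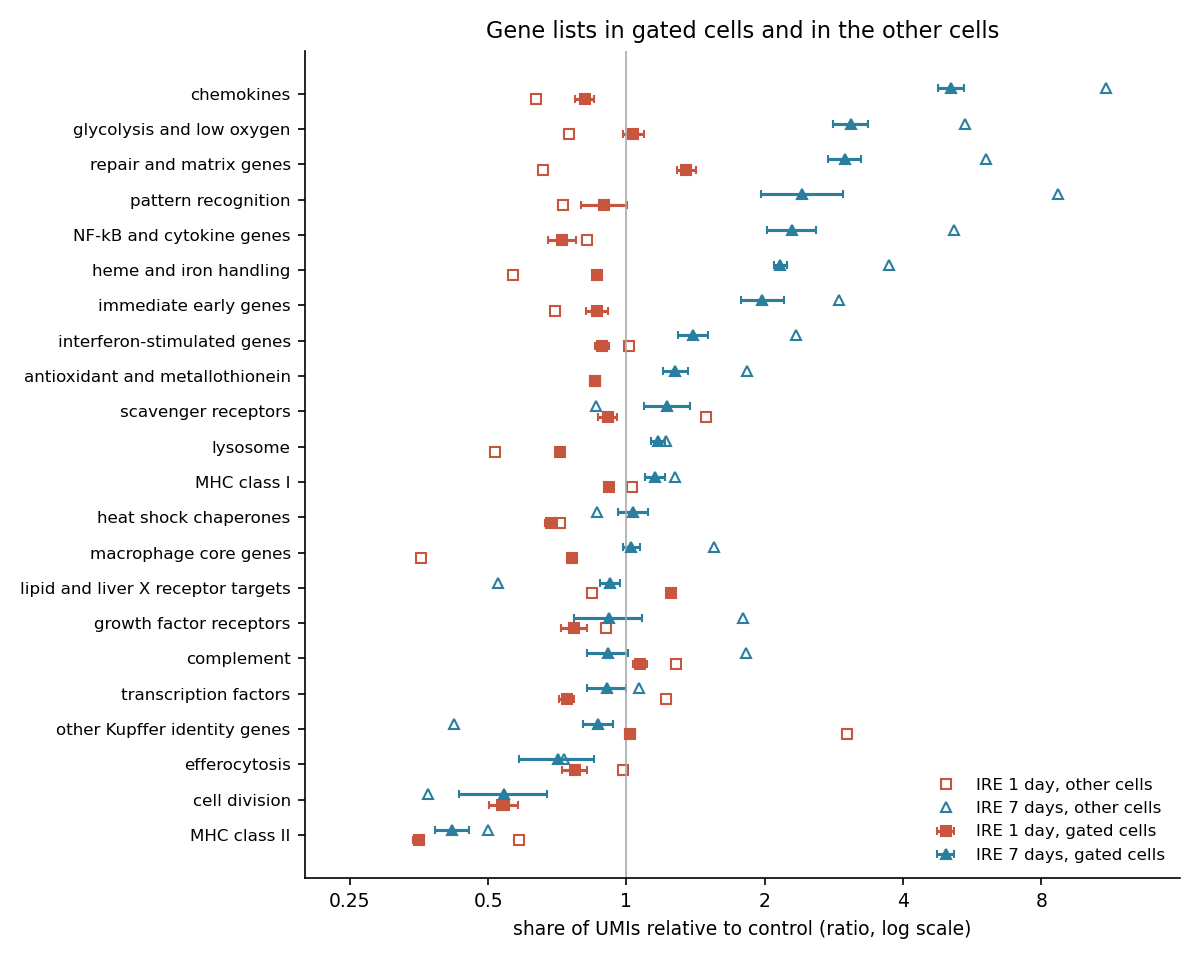
Share of UMIs relative to the control (x axis, ratio on a log scale) of 22 gene lists (y axis) at 1 day (squares) and 7 days (triangles), in members (filled, with exact 95% intervals) and in the cells outside the gate (open). MHC class II lies below 0.5 in members at both times, and chemokines lie highest at 7 days, at 5.09 in members.

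Of the lists of gene roles, which leave out the markers of other cells and the GTPase list described below, MHC class II had the lowest summed ratio at 1 day p.i. These proteins display peptides of engulfed material to CD4 T cells. The list summed to 1.11% of UMIs in the control and 0.392% at 1 day, a ratio of 0.353 (0.343 to 0.363). All 10 of its genes entered, 6 were lower and 0 higher, with a median of 0.41, against 4.6% of all genes lower. H2-Eb1, a beta chain, had 2044 CPM in the control, 530.3 at 1 day and 690.4 at 7 days, a ratio of 0.259 (0.241 to 0.279) at 1 day. H2-Ab1, the other beta chain, had 3816, 1115 and 1279.8. Both injured libraries were far below the control for these chains, and the intervals of the injured libraries overlapped each other. H2-Aa, an alpha chain, had 2146, 819 and 1027. Cd74, the invariant chain that guides class II through the cell, had 2314, 986 and 1212. Ciita, the master coactivator of these genes, was rare, with 38, 18 and 1 UMIs. Monocyte markers in the members were lower at 1 day too, with a summed ratio of 0.390 (0.358 to 0.424) and 4 of 5 entering genes lower. At least 2 of them were seen in 175 members of the control and 67 at 1 day. At 7 days their summed ratio was 1.33. Their part in the level of class II was not tested.

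The lower level of class II at 1 day held in each processing setting run for H2-Eb1, H2-Ab1 and H2-Aa, with H2-Eb1 between 0.251 and 0.300. The ratio of Cd74 was 0.534 without members with endothelial markers, above the limit. The cells outside the gate were also lower for H2-Eb1, with a ratio of 0.491, so a lower level was not particular to the members. MHC class I had 3 of 11 genes lower and 0 higher, also against 4.6% of all genes lower, and summed to a ratio of 0.916. B2m, the light chain of class I, had 4930.3, 4988 and 6534 CPM, and H2-D1, a heavy chain, had 3037, 3169 and 4151. The lower class I genes were Tap1 and Psmb8, which transport and cut the peptides, at 0.475 and 0.443, and Nlrc5, a class I coactivator, at 0.414. Without members with endothelial markers Tap1 and Psmb8 were at 0.553 and 0.528, and without mitochondrial and hepatocyte UMIs in the total Tap1 was at 0.502.

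Interferon-inducible GTPases were lower as well. The guanylate-binding proteins (Gbp) and immunity-related GTPases attack vacuoles of intracellular microbes and are known targets of interferon gamma. This list was put together after changes in some of its genes had been seen, so its count is a description. Of 15 genes 14 entered at 1 day, 11 were lower and 0 higher, against 4.6% of all genes lower. The median of the 14 was 0.389 in the members and 0.731 outside the gate. Gbp2b had 464 CPM in the control, 124 at 1 day and 84.2 at 7 days, with a ratio of 0.267 (0.228 to 0.311) at 1 day. It was a gene of the members more than of the rest, with 29.7 outside the gate in the control. Gbp5 had 111, 25.4 and 101, and was thus lower at 1 day but near the control at 7 days. Iigp1 had 462, 259 and 75.8, with a ratio of 0.559 (0.495 to 0.631) at 1 day and of 0.164 (0.0746 to 0.313) at 7 days, and the difference between the times was not tested. Gbp8 had 419.7, 161 and 160.0. Without mixed barcodes Gbp2b stood at 0.678 at 1 day, within 2-fold. The family members are close paralogs, as are Tgtp1 and Tgtp2, and the counting may have split their reads.

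The promoters of these genes are shown because most of the list moved the same way and its genes share a motif. The sequences are the 250 bases before the start site, 5′ to 3′ on the strand of the gene, from RefSeq on GRCm38.p6, for the 3 genes of the list with the lowest 1-day ratios among those that hold the motif. The capitals mark GAAANNGAAA on either strand, the core of the interferon-stimulated response element. Gbp5 lies at chr3:142496684-142496933 on the plus strand, Tgtp2 at chr11:49064213-49064462 on the minus strand and Gbp2b at chr3:142594597-142594846 on the plus strand.
Gbp5: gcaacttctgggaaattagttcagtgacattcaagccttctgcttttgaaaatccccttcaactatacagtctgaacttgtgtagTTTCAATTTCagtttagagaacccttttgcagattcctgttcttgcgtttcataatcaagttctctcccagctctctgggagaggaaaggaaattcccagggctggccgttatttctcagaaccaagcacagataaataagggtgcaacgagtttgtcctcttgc
Tgtp2: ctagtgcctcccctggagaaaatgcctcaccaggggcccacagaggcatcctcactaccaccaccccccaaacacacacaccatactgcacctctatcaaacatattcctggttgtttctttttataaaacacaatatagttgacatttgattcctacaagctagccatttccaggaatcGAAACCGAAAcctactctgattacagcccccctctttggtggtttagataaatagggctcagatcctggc
Gbp2b: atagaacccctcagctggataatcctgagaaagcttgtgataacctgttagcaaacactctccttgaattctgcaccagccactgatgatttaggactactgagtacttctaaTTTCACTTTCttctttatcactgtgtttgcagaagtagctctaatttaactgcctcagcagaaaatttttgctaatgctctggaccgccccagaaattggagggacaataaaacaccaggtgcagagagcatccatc

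The match began 165 bases before the start in Gbp5, 70 in Tgtp2 and 137 in Gbp2b. In windows of 300 bases, from 250 before to 50 after a start, 10 of 15 list symbols had an entry, and 10 of their 11 windows held the motif. Of all 32851 windows 1131 held it (3.44%). The second motif searched was TTCNNNGAA, the core of the gamma-activated site, on both strands. It was in 6 of the 11 windows against 8.30% of all windows, and no match of the list shared bases with a match of the first motif. The list of interferon-stimulated genes held the first motif in 8 of 14 windows, MHC class II in 0 of 6, the other identity genes in 0 of 12 and the chemokines in 0 of 9. A match is a description of letters in the window and not a binding site.

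**Figure D4:**
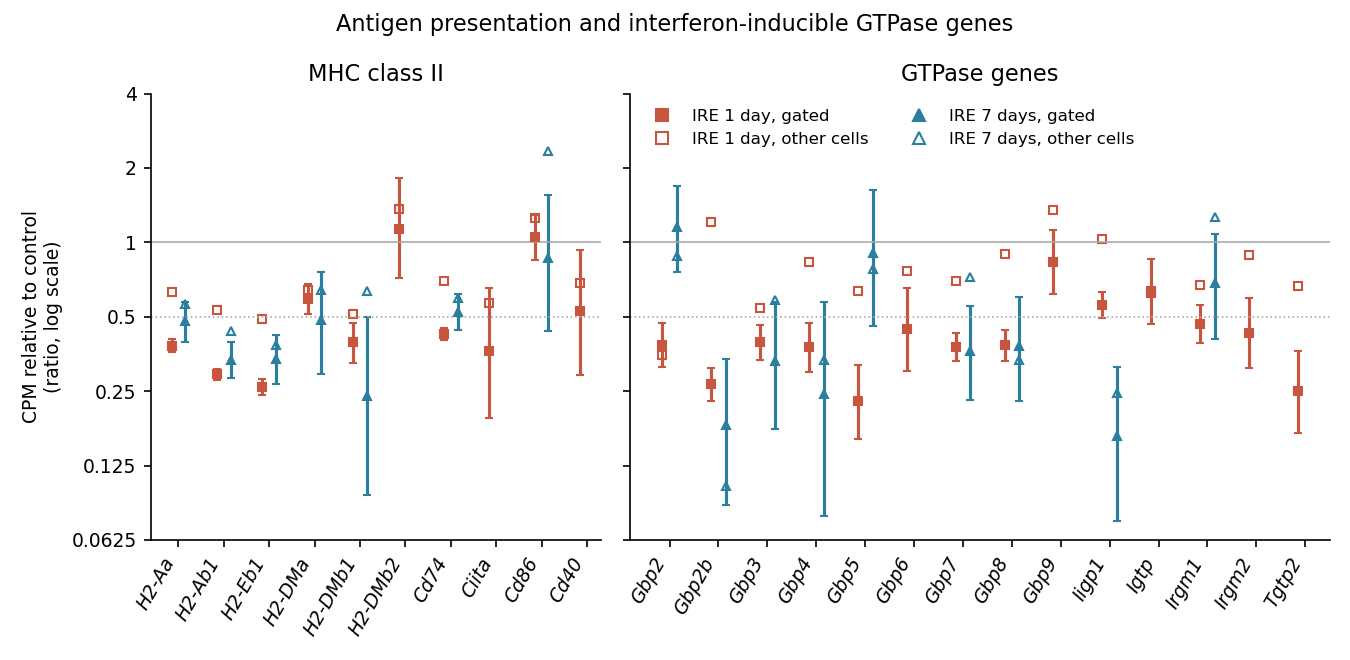
Ratio of CPM to the control (y axis, log scale) for MHC class II genes (left) and the interferon-inducible GTPases (right) at 1 day (squares) and 7 days (triangles), in members (filled, with exact 95% intervals) and in the other cells (open). The dotted line marks 0.5. H2-Eb1 lies at 0.259 and Gbp2b at 0.267 in members at 1 day, and the open symbol of Gbp2b lies at 1.21.

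Of 17 interferon-stimulated genes of the antiviral type 2 were lower and 0 higher at 1 day, against 4.6% of all genes lower and 12.3% higher. The list is too small to read these counts against those shares. Its median was 0.845, and it summed to a ratio of 0.885 (0.856 to 0.915). Among the lower ones was Zbp1, a sensor of nucleic acids, at a ratio of 0.425, or 0.542 without members with endothelial markers. Isg15 and Ifit1 were at 0.845 and 0.826.

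Lower genes at 1 day were then set beside the other cells of the control. Of the 318 lower genes 75 (23.6%), the gate gene Marco among them, were at least 2-fold higher in control members than in the other control cells and in control barcodes under 200 genes, against 558 of all 6913 entering genes (8.07%). A lower gene is high in the control by its call, so these shares are a description. Among the 75 was Vcam1, an adhesion molecule, with 714 CPM in the control, 278 at 1 day and 639.9 at 7 days. Its ratio at 1 day was 0.390 in members and 1.30 outside the gate. Without members with endothelial markers it was 0.505, and without mixed barcodes 0.609. Cdkn1a, the cell cycle inhibitor p21, had 324, 63 and 303, with a ratio of 0.195 (0.157 to 0.239) that held in each setting run. Both genes were lowest in the 1-day library and near the control at 7 days. Serpina3g, a protease inhibitor, had 366, 98.3 and 118. Trpm2, a calcium channel opened by oxidants, was at 0.348, and Il18, an inflammasome cytokine, at 0.481, or 0.507 without mitochondrial and hepatocyte UMIs in the total.

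Heme and iron handling had 0 of 10 genes higher or lower at 1 day and scavenger receptors 0 of 8, lists too small to read a lack of calls against the shares of all genes. Lysosome genes had 1 of 19 lower, the protease Ctsd at 0.484, against 4.6% of all genes lower. Macrophage core genes had 2 of 13 lower, Aif1 at 0.417 and Laptm5 at 0.494. These calls depended on the setting. Without mitochondrial and hepatocyte UMIs in the total Ctsd was at 0.511 and Laptm5 at 0.521, and without members with endothelial markers Aif1 was at 0.548. Of 14 transcription factors 2 were lower, among them Cebpb, which drives acute inflammatory genes, at 0.276. Nr1h3, the liver X receptor that holds Kupffer identity, stood at 0.593, within 2-fold. Csf1r, the receptor for the survival factor of macrophages, had 828, 736 and 623 CPM.

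The other lists of gene roles had calls in either direction, to be read beside 12.3% of all genes higher and 4.6% lower. Lists of this size are too small to read counts of 1 or 2 genes against these shares. Repair and matrix genes had 3 of 11 higher, among them Spp1, and 1 lower. Complement genes had 2 of 10 higher, among them C3, and 1 lower, the integrin Itgam at 0.346. Glycolysis genes had 1 of 10 higher and 2 lower, among them Pkm at 0.466. Spp1 and C3 are given with their values below. Heat shock chaperones had 1 of 8 lower, Hsp90aa1 at 0.440, and antioxidant genes 2 of 11, the peroxiredoxin Prdx5 at 0.471 and the thioredoxin Txn1 at 0.494. Growth factor receptors had 2 of 9 lower, Csf2rb, a subunit of the GM-CSF receptor, at 0.345 and Acvrl1, a receptor for BMP9 and BMP10, at 0.453, and 1 higher, Bmpr2 at 2.20. Among 10 genes of efferocytosis, the uptake of dead cells, the bridging proteins Gas6 and Mfge8 were higher at 3.22 and 2.58, and Anxa1 and Itgav were lower at 0.319 and 0.495. Several of these calls depended on the cells kept. Without members with endothelial markers Gas6 was at 1.89 and Acvrl1 at 0.550, with all mixed barcodes removed Hsp90aa1 was at 0.578, Prdx5 at 0.748 and Txn1 at 0.655, with at least 3 identity genes Mfge8 was at 1.54, and with a minimum of 500 genes Itgav was at 0.600, each within 2-fold. Apoe, a lipid carrier made by Kupffer cells and hepatocytes, had 14012 CPM in the control, 18256 at 1 day and 11400.0 at 7 days. Each of these levels was within 2-fold of the control.

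Of 12 chemokines that entered at 1 day 3 were lower and 0 higher, against 4.6% of all genes lower and 12.3% higher. Ccl2, which draws monocytes through Ccr2, had 86.7, 24.9 and 564 CPM, and was thus lowest at 1 day and highest at 7 days. Ccl7 and Ccl8, related monocyte chemokines, were at 0.258 and 0.139, and 22 of the 66 control UMIs of Ccl8 came from 1 member. Of 10 NF-kB and cytokine genes 2 were lower and 0 higher, and both lists are too small to read a lack of higher calls. Cell division genes had 6 of 13 lower and 0 higher, with Mki67 and Top2a, both used in dividing cells, at 0.373 and 0.344. Outside the gate Mki67 was at 0.393.

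Hepatocyte genes led the higher genes at 1 day outside the lists of markers. The 12 highest ratios outside the marker lists were those of Mup10, Cyp2e1, Cyp3a11, Cyp4a10, Pon1, Cyp2b9, Hamp2, Car3, Sult2a2, Ces3a, Acaa1b and Ces1f, all known as hepatocyte genes, and 12 of the 13 hepatocyte markers and 8 of 8 endothelial markers were higher. The Mup genes are near-identical copies whose reads may have been split. C3, the central complement protein, had 261 CPM in the control, 1100.3 at 1 day and 92.6 at 7 days. Hepatocytes also make it, its ratio outside the gate was 2.49, and 128 of its 361 control UMIs came from 1 member. Spp1, the matrix protein osteopontin, had 103, 780.5 and 775. At 1 day 302 of its 1413 UMIs came from 1 member, and its ratio of 7.61 was 2.66 in members of at most 5000 UMIs. The lowest 12 were Gpnmb, Saa3, Saa2, Mmp12, Ccl8, Fstl1, Saa1, Gda, Mgp, Prg4, S100a6 and Tpm2. Of the control UMIs, 72 of 105 of Saa1 and 63 of 92 of Saa2 came from the highest member of each gene. Gpnmb and Mmp12 belong to the gate, and mesenchymal markers were lower too, at 0.047% of UMIs in the control and 0.00376% at 1 day.

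Platelet genes, a list added after their changes had been seen, showed how far 1 barcode can carry a sum. Pf4, a platelet chemokine, had 206, 882 and 138 UMIs in the members, and 722 of the 882 at 1 day came from 1 member. Its ratio of 3.27 at 1 day became 0.674 in members of at most 5000 UMIs. Ppbp and Gp1bb, also platelet genes, had 148 of 151 and 61 of 61 of their 1-day UMIs in 1 member. In the control the 206 UMIs of Pf4 were spread over 137 members, and at 7 days the 138 over 36. Ppbp had 0 and 1 UMIs in the members of these 2 libraries. Whether their Pf4 RNA came from platelets was not tested. Members above 5000 UMIs numbered 2 in the control, 32 at 1 day and 0 at 7 days, and held 1.56%, 16.0% and 0% of the UMIs.

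At 7 days p.i. the 135 members carried higher chemokine RNA. The list summed to 5.09 times the control share, and 5 of 8 genes that entered were higher and 0 lower, against 6.24% of all genes higher. Cxcl2, which draws neutrophils through Cxcr2, had 36.8 CPM in the control, 33.7 at 1 day and 1322 at 7 days, a ratio of 35.9 (26.0 to 50.2). A UMI of it was seen in 50.4% of members at 7 days and 3.02% in the control. Ccl6 and Ccl9, which attract myeloid cells, had 734, 663 and 4387 and 54.9, 43.6 and 926. Ccl2 stood at a ratio of 6.51 (4.75 to 8.85). The 1-day library was near or below the control for each of these and the 7-day library stood alone. Cxcl2 and Ccl2 were even higher outside the gate. Cxcl2 had 5379.6 CPM in the other cells at 7 days and 11981 in barcodes under 200 genes, with a ratio of 86.1 outside the gate, and Ccl2 had 1658 in the other cells. Neutrophil markers made 9.69% of the UMIs in the barcodes under 200 genes at 7 days. How much of the members' RNA of these genes came from other cells was not tested.

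Cxcl13, which draws B cells into follicles, was higher in the members than in the other cells and in barcodes under 200 genes. It had 291 CPM in the control, 304 at 1 day and 1759.7 at 7 days, a ratio of 6.04 (5.09 to 7.16) that stayed at 5.12 or above in the settings run. The 7-day library was high and the other two overlapped. In the other cells at 7 days it had 23.5 CPM and in barcodes under 200 genes 26.3. Its 209 UMIs at 7 days came from 43 of 135 members, 27 of them from 1 member. Of the 119 genes higher at 7 days 14 were at least 2-fold higher in members than in the other cells and in the barcodes under 200 genes of that library. That is 11.8%, near the 14.4% of all 1906 entering genes, and it is no result about the higher genes. Besides Cxcl13 they included Rgs1, a brake on chemokine receptor signals, at 2.88 (2.03 to 4.01). Ear2, an RNase, was at 2.5 and Cd36, a receptor for oxidised lipid, at 2.28. Acp5, the tartrate-resistant acid phosphatase, was at 2.23 and Cd55, which limits complement, at 2.08. Wfdc17, a small secreted protein with an antiprotease fold, had 3756, 4187 and 8377 CPM, and its ratio was 2.23 in members and 2.73 outside the gate. Without mitochondrial and hepatocyte UMIs in the total Acp5 and Wfdc17 were at 1.99 and Cd55 at 1.86, and with a TMM factor Cd36 was at 1.93, each within 2-fold.

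Repair and matrix genes had 4 of 7 higher and 1 lower at 7 days in the members, against 6.24% of all genes higher and 7.45% lower. The median ratio of the list was 3.99 in members and 6.25 outside the gate. Among the higher ones Spp1 stood at a ratio of 7.55, with 34 of its 92 UMIs in 1 member, Ecm1, an extracellular matrix protein, at 4.04 and Lgals3, the lectin galectin-3, at 3.99. Fn1, fibronectin, was lower at 0.351. Il1rn, the antagonist of interleukin-1, had 49.8, 22.6 and 690.4, a ratio of 13.9 (9.93 to 19.4), and Il1b, the cytokine it opposes, had 144, 128 and 606. Outside the gate their ratios were 11.2 and 14.3. Both are also neutrophil genes, and 122 of the 135 members carried at least 2 neutrophil markers, against 300 of 1290 in the control. The neutrophil markers were most frequent in the library where both genes were highest, and whether RNA of both genes came from neutrophils was not tested. Cd14, a coreceptor for bacterial endotoxin, had 75.1, 114 and 522, a ratio of 6.95 in members and 29.3 outside. Rsad2 and Cxcl10, both interferon targets, stood at 4.72 and 5.19, while the other 12 entering genes of that list were within 2-fold.

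All 7 glycolysis genes that entered were higher at 7 days and 0 were lower, against 6.24% of all genes higher and 7.45% lower. The same shares stand beside the other counts at 7 days. Gapdh had 295 CPM in the control, 481 at 1 day and 1162 at 7 days. Pgk1 stood at 6.12 (4.29 to 8.65) and Pkm at 2.88. The list summed to 3.08 times the control in members. The 7-day library was high for each of these 3 genes. Fth1, the heavy chain of the iron store ferritin, had 4637, 4017 and 15963, a ratio of 3.44 (3.27 to 3.62), and Ftl1, the light chain, had 9468, 8528 and 18472. Immediate early genes had 5 of 10 higher, with Ier3 at 10.5, Dusp1 at 3.14, Junb at 2.32, Ier2 at 2.31 and Zfp36 at 2.01, and Jund lower at 0.387. With a TMM factor Junb and Ier2 were at 1.96, Zfp36 at 1.71 and the glycolysis gene Tpi1 at 1.90, each within 2-fold. Cd68, a lysosomal membrane protein of macrophages, had 353, 419.8 and 959.8. Plin2, which coats lipid droplets, stood at 3.68. Among lysosome genes Ctsl, a protease, was the 1 of 19 that was higher, at 2.40 (1.92 with members thinned to 300 UMIs). That count is near the share of all genes. Efferocytosis and heat shock genes had 0 of 4 and 0 of 5 higher or lower, lists too small to read a lack of calls. The cells outside the gate moved the same way for the leading genes, with Fth1 at 5.15, Gapdh at 6.08 and Pgk1 at 7.39. Mitochondrial genes, which share the total with all others, had 6 of 8 lower at 7 days.

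**Figure D5:**
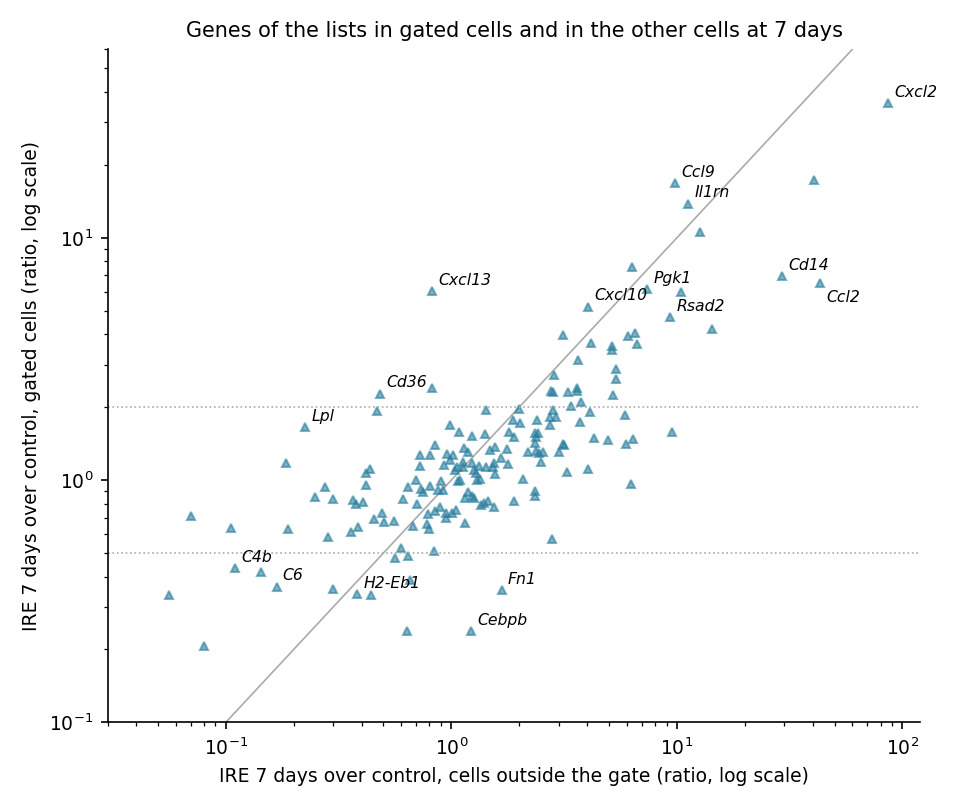
Ratio of 7 days to control in members (y axis) against the same ratio in the cells outside the gate (x axis), both on log scales, for the 176 genes of the lists that entered with a UMI in both libraries. The grey line marks equal ratios and the dotted lines 2 and 0.5. Above the line lie 64 genes, with Cxcl13 at 6.04 in members and 0.819 outside.

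Lower genes at 7 days again included those of MHC class II. MHC class I had 0 of 9 entering genes higher or lower and summed to a ratio of 1.16 (1.10 to 1.22). Of 7 MHC class II genes 5 were lower and 0 higher, against 7.45% of all genes lower, and the list summed to 0.463% of UMIs, a ratio of 0.417. H2-Eb1 stood at 0.338 (0.268 to 0.421) and H2-Ab1 at 0.335. Cd74 stood at 0.524, within 2-fold. Both comparisons use the same control members, so the values at 1 and 7 days share that side. With mixed barcodes removed, which left 12 members, H2-Aa was at 0.976. The GTPase list had 6 of 9 genes lower and 0 higher. C4b, a complement component, had 407, 246 and 177 CPM, and C6 stood at 0.364 (0.238 to 0.533). Serpina3g was at 0.322 and Cebpb at 0.238 (0.0485 to 0.709), the latter on 3 UMIs. The list of 12 lowest ratios outside the marker lists was 2810417H13Rik, Gc, Ighm, Apoc3, Lig1, Hpx, Sparc, Sult1a1, Iigp1, 2610507B11Rik, D17H6S56E-5 and Gbp2b, of which Gc, Apoc3, Hpx and Sult1a1 are hepatocyte genes. In the control the highest member of each gene held 134 of 187 UMIs of Gc, 101 of 135 of Apoc3, 189 of 280 of Hpx and 81 of 142 of Ighm. Sult1a1 was spread more widely, with 28 of 147 in its highest member. The hepatocyte markers themselves were lower in 7 of 7 entering. The 12 highest included Cxcl2, Ccl9, Il1rn, Ier3, Srgn, Pf4, Spp1, Cd14, Ifitm1, Ccl2 and Pgk1.

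Genes too rare in the control could not enter the 7-day comparison, and some had large values there. Cxcl3, a neutrophil chemokine, had 1 UMI in the control, 7 at 1 day and 36 at 7 days. Ccl3, Ccl4 and Ccl7 had 47, 50 and 49 UMIs at 7 days from 61, 59 and 77 in the control, whose members held many more UMIs in all. As levels these were 396, 421 and 413 CPM against 44.1, 42.6 and 55.6.

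The members differed from other cells with C1q genes in more than identity. In the control, MHC class II made 1.11% of the members' UMIs and 1.16% in those cells, a ratio of 0.956 (0.933 to 0.980). At 1 day the ratio was 0.707 (0.676 to 0.740) and at 7 days 0.726 (0.657 to 0.801), and the difference between the libraries was not tested. The control value depended on the neighbours taken, since C1q cells with 1 identity gene had 1.07% (1.04% to 1.11%) and those with none 1.21%. Against the cells of the Gpnmb and Trem2 state the class II ratio was 2.02 (1.95 to 2.09) in the control and 0.940 (0.780 to 1.14) at 7 days. Repair and matrix genes stood at 0.696 of the other C1q cells in the control, 1.04 at 1 day and 0.309 (0.285 to 0.334) at 7 days. Complement genes were higher in the members at each time, at 1.54, 1.74 and 1.31. Classical monocytes at 7 days had 1.60% of UMIs in the repair list against 0.600% in the members.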

How the data were processed

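Libraries were made by Drop-seq from dissociated liver, 1 library per condition, and the authors deposited raw UMI counts per gene and barcode as 3 tables without normalization. Per the file headers the counts came from the Drop-seq tools, which merged UMIs 1 base apart, kept reads of mapping quality of at least 10 and took sense reads on coding and untranslated bases. The submitters' processing notes name STAR 2.5.2a and the build hg19, a human build, while the symbols are of mouse, so no coordinate was taken from the tables. The headers name a minimum of 200 genes, but barcodes reached down to 11 genes, and the minimum was applied here. Merging of close UMIs and shallow sampling can lower high and low genes respectively.

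Counts were summed over members per library and divided by their total (CPM, per 1000000 UMIs). Python 3.11.15, pandas 2.3.3, numpy 2.4.6 and scipy 1.17.1 gave exact 95% intervals, and the scripts were tested on simulated data, in which the most abundant genes were kept constant after a draw that varied them recovered too few. Where a gene had 0 UMIs on either side, 3 counts stood in as a floor. Of 385 genes in 37 lists 384 were found, over 19091 genes in all. Adgre1 and Chil3 were matched by the older symbols Emr1 and Chi3l3, and Clec7a was not analysed here. The members and lists were chosen with earlier results of these data known. Named genes were those of the gate, members of the lists, and the 12 highest and 12 lowest ratios per time outside mitochondrial genes and markers of other cells. Others named (Vcam1, Cdkn1a, Serpina3g, Trpm2, Rgs1, Ear2, Acp5, Cd55, Wfdc17 and Ptpn1) were chosen after their values were seen, and some genes that the rule names are not reported here. Alternatives were other minimum genes, gates, totals, a TMM factor, thinning to 300 UMIs and removal of mixed barcodes. Promoter windows were from RefSeq.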

Additional observations from a re-analysis of the deposited data

Results flagged for a closer look

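In the members 5 list genes moved in opposite directions at the 2 times, each at least 2-fold from the control, and the difference between the times was not tested because each condition is 1 library. C3 was higher at 1 day (ratio 4.22) and lower at 7 days (0.355), so its 7-day level was 0.0842 of its 1-day level (95% counting interval 0.0419 to 0.151). Itgam, an integrin of myeloid cells, was lower at 1 day (0.346) and higher at 7 days (3.59), a 7-day level 10.4 times that at 1 day. Il1rn went from 0.454 to 13.9, a factor of 30.5 between the times. Ccl2 went from 0.287 to 6.51, a factor of 22.7. Pkm, a glycolysis enzyme, went from 0.466 to 2.88, a factor of 6.18. Neutrophil markers in the members moved the same way as Itgam, Il1rn, Ccl2 and Pkm. Their summed ratios were 0.191 at 1 day and 6.75 at 7 days. Outside the gate Ccl2 was at 0.374 at 1 day and 42.9 at 7 days, and Il1rn at 11.2 at 7 days. Whether RNA of these genes in the members came from neutrophils was not tested. With at least 3 identity genes required, the 7-day ratio of C3 was 0.761.

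The barcodes under 200 genes, which were left out of the cells and served as a reference level, also held Kupffer RNA. The 13 other identity genes made 0.255% of their UMIs at 1 day, against 0.0654% in the control and 0.0293% at 7 days.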

How the results depend on the processing

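No paired analysis was possible because each condition is 1 library. In each setting run the share of members was lowest at 7 days. Shares in the control, at 1 day and at 7 days were 28.2%, 47.7% and 8.25% with a minimum of 500 genes, 8.65%, 11.2% and 1.13% over every deposited barcode, 5.99%, 9.85% and 1.48% with the gate read on 300 UMIs, 8.98%, 13.3% and 1.81% with at least 3 identity genes, and 8.13%, 1.01% and 0.213% with mixed barcodes left out of the members but not of the total. With no excluded genes the control share was 13.1%, and with at most 20% mitochondrial UMIs the shares were 18.8% in the control and 35.1% at 1 day. Added after seeing the data, removal of mixed barcodes from members and total gave 14.6% and 33.1%, removal of barcodes with endothelial markers from both 13.7% and 24.2%, from the members alone 11.4% and 11.4%, and a minimum of 1% of UMIs from identity genes gave 7.51%, 11.0% and 1.51%.

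Genes higher and lower at 1 day numbered 11 and 44 without mixed barcodes, 211 and 134 after thinning, 492 and 200 with at least 100 UMIs, 276 and 209 without endothelial markers, 220 and 153 with the 1% minimum, and 8 and 75 among genes above the other cells and the barcodes under 200 genes in the library where they were higher, so that these are read against different libraries, and the 8 include Cd209f of the gate and Pf4, Ppbp and Gp1bb. At 7 days they were 3 and 4 of 36 entering without mixed barcodes, 71 and 259 with a TMM factor, 31 and 54 after thinning, 67 and 90 with the 1% minimum, and 14 and 30 above the other cells and low barcodes. The 8 are 0.939% of the higher genes at 1 day, against 3.72% of all entering genes. The 30 are 21.1% of the lower genes at 7 days, against 13.2% of all entering genes. Such genes are high in the library read by their call, so these shares are a description. A gene below the entry rule under a setting had no value there. The causes were not tested, but fewer members and genes enter under several settings. Of 164 named genes called at 1 day 83 kept their call in each setting run, and of 105 at 7 days 72. Pf4 at 1 day turned to 0.659 with at least 3 identity genes, 0.674 with at most 5000 UMIs and 0.759 without endothelial markers, and Ptpn1 to 1.05 without mixed barcodes. Depth limits the 7-day members most, with 118772 UMIs.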
